A study of Mus musculus with 24 samples.

Results

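The 38 genes described here belong to the unfolded protein response and the integrated stress response, 2 linked programmes that cells use when proteins misfold in the endoplasmic reticulum (ER) or when amino acids run short. They were chosen by symbol from a list of ER chaperones, folding and degradation factors, stress sensors and targets of the transcription factor Atf4. All 38 were measured, among 12393 genes on the array, and all 38 were among the 8619 genes that passed a filter on low values. RNA came from C2C12 cells, an established line of mouse skeletal muscle myoblasts, that had received siRNA against Ift88 (IFT88KD), which encodes a protein of ciliary transport, or a negative control siRNA. The series was made to ask how the loss of cilia bears on the quiescence of myoblasts. Each siRNA was followed in 4 culture states with 3 Affymetrix mouse expression arrays each, 24 in all. Proliferating cells were adherent in medium with 20% fetal bovine serum, and quiescent cells were kept in the same medium but in suspension. Replated cells were returned to a surface after suspension and taken at 2 h, and differentiating cells spent 48 h adherent in medium with 2% horse serum. Suspension thus changed attachment as well as the cell cycle, and replated cells had been through suspension. Nothing in the labels says that replicates came from separate cultures, so p-values measure only the spread between these arrays, whose number limits the precision.

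In the unfolded protein response 3 sensors span the ER membrane. Ern1 splices Xbp1 mRNA, Atf6 is cut in the Golgi to release a transcription factor, and Eif2ak3 (PERK) phosphorylates eIF2 alpha and so slows protein synthesis. Xbp1 and Atf6 raise chaperones, disulfide isomerases and the ER-associated degradation machinery. Phosphorylation of eIF2 alpha, by Eif2ak3 or by kinases that sense amino acid shortage, haem loss or double-stranded RNA, favours translation of Atf4, which drives genes for amino acid synthesis, amino acid transport, serine and folate metabolism and, with Ddit3 (CHOP), feedback and cell death. In muscle precursors this signalling has been tied to differentiation and to the quiescence of satellite cells. Arrays measure mRNA, not splicing of Xbp1, cutting of Atf6 or phosphorylation.

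Values are on the deposited log2 scale, and levels are not compared between genes. Median signal differed between states, from 2.91 to 2.98 on replated arrays and from 3.57 to 3.85 on all others, and the median change of all genes tested was -0.60 from quiescent to replated control cells and -0.58 in IFT88KD cells. It was 0.14 and 0.12 from proliferating to quiescent cells and -0.06 and -0.05 from proliferating to differentiating cells. State changes below are therefore read against these shifts, and calls are given again after quantile normalisation of all arrays and after centring each array on its median. In quiescent cells Ift88 itself was 0.69 log2 lower with its siRNA (SE 0.16, adjusted p = 0.0112), and it was not called in proliferating (-0.52), replated (-0.59) or differentiating cells (-0.01). Of 7 myoblast markers 6 were above the filter level on every array, and Pax7 was above it on none. Endothelial and lymphoid markers and the macrophage genes Adgre1, Ptprc, Itgam and Lyz2 were below that level in all 8 groups. Of the 7 macrophage genes 1 was above it on all 3 arrays of each proliferating and differentiating group. In quiescent and in replated cells 2 were with IFT88KD and 3 in control. Of 3 adipocyte genes 1 was above it on all arrays, and of 4 bone and cartilage genes 1 on all proliferating and quiescent arrays. RNA of a whole culture was measured, so fewer cells of a kind and less RNA per cell cannot be told apart.

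Many of the 38 shared a deviation between replated arrays of the same number. Replicate 1 was the lowest array for 29 members in control and 24 in IFT88KD replated cells, and for 21 members in both. The median deviation of the 38 from their group mean was -0.22 and -0.20 on these 2 arrays, against 0.05 and 0.00 over all genes tested. For example, Creld2 read 6.22, 7.47 and 7.36 in control and 5.90, 7.56 and 7.39 in IFT88KD replated cells, and Hspa5 read 10.39, 11.22 and 11.20 in the former and 10.25, 11.08 and 11.06 in the latter. Proliferating replicate 2 was likewise lowest for 24 members in control and 26 in IFT88KD cells. Members thus share deviations, and a count over members is not a count of independent observations.

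Promoter sequences of 34 members were given by RefSeq (GRCm38.p6), from 250 bases before to 50 after the start of the gene, and Hyou1, Manf, Atf6 and Slc7a5 had none in that table. The ER stress element, CCAAT and CCACG parted by 9 bases on either strand, is bound by NF-Y with Atf6 or Xbp1. It lay in the window of 8 of 34 members (Calr, Canx, Creld2, Dnajc3, Hsp90b1, Hspa5, Pdia6 and Syvn1), against 0.137% of 27025 genes. ERSE-II, ATTGG and CCACG parted by 1 base, lay in 2 members (Dnajb11 and Herpud1), against 0.0444% of genes. An element of the kind that Atf4 binds together with C/EBP partners, TGATG, any base and AA, lay in 5 members (Asns, Chac1, Herpud1, Slc7a11 and Trib3), against 4.51% of genes. TGACGTGG, a core bound by Xbp1 and Atf6, lay in 0 members and in 0.714% of genes. No member held both kinds of ER stress element, and the 2 motifs of Herpud1 do not overlap. A match is a description of letters only. The stretches below show each motif in capitals with 20 bases on either side, on the strand of the gene. They are shown because these genes mark the different courses described further on: a chaperone and degradation genes, the calnexin gene Canx, and targets of Atf4.
Hspa5 ER stress element, chr2:34772005-34772063, plus strand: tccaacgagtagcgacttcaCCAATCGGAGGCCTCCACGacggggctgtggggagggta
Syvn1 ER stress element, chr19:6046512-6046570, plus strand: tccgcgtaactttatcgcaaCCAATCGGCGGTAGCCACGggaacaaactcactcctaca
Canx ER stress element, chr11:50325780-50325838, minus strand: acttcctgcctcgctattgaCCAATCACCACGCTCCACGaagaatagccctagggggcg
Herpud1 ERSE-II, chr8:94386357-94386407, plus strand: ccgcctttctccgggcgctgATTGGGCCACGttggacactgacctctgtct
Chac1 Atf4-type element, chr2:119351029-119351076, plus strand, motif on the other strand: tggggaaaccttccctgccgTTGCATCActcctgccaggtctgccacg
Asns Atf4-type element, chr6:7693205-7693252, minus strand: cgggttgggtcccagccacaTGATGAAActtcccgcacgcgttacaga

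**Figure D1:**
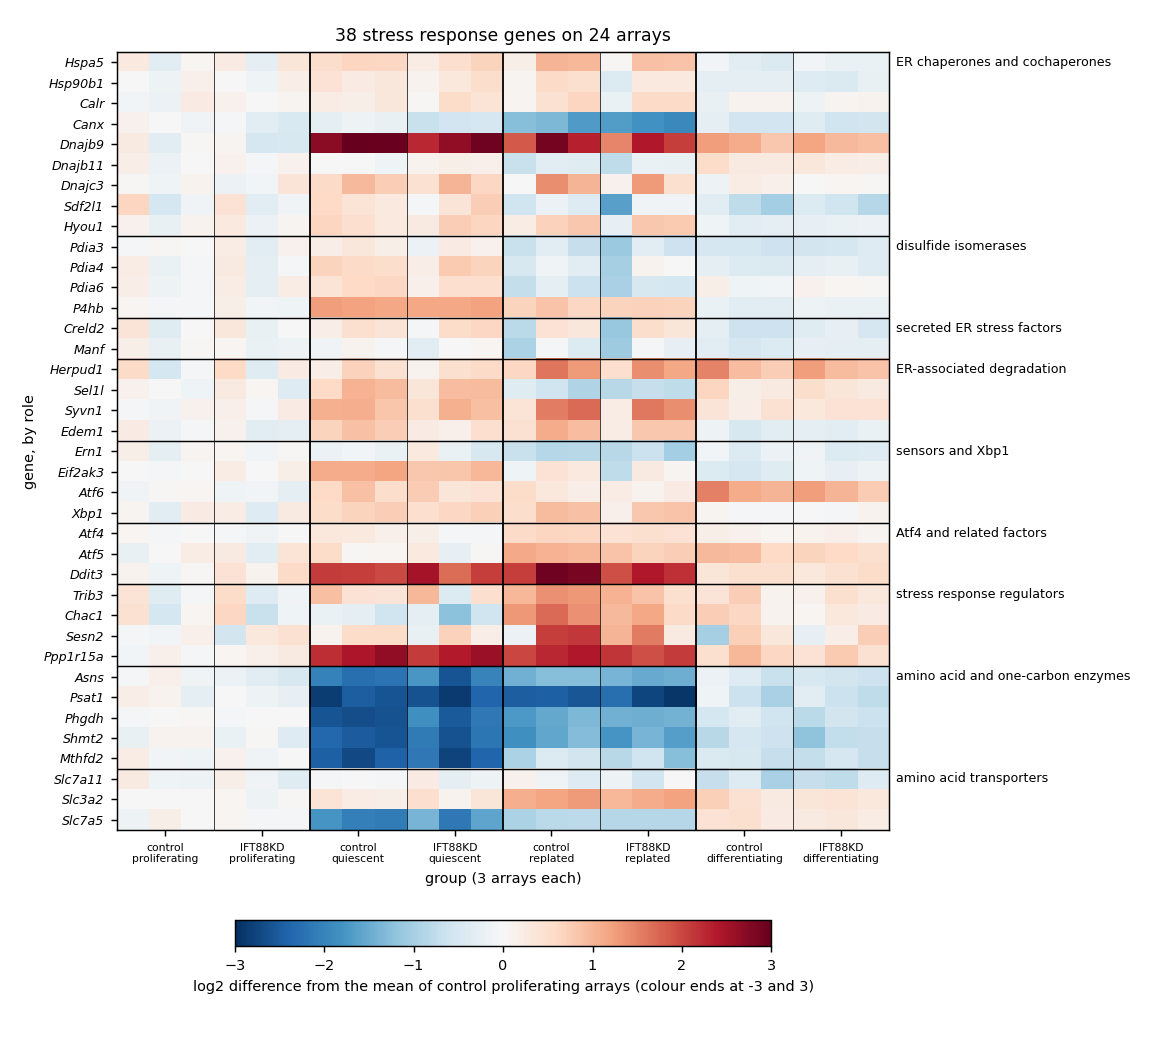
Log2 difference of each of the 38 genes (rows, grouped by role) from its mean on the 3 control proliferating arrays, on each of the 24 arrays (columns, 3 per group, replicates 1 to 3 from left to right). Red is higher and blue lower, and colour ends at -3 and 3. The amino acid and folate enzymes and Slc7a5 are blue on all 6 quiescent arrays while Dnajb9, Ddit3 and Ppp1r15a are red there.

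In suspension the 38 genes moved apart. A gene is called when its adjusted p is below 0.05 in limma, with Benjamini-Hochberg adjustment over the 8619 genes. From proliferating to quiescent control cells 17 members rose and 6 fell, where 41.9% of all genes tested rose and 29.4% fell. The 6 that fell were all 5 amino acid and folate enzymes and the transporter Slc7a5, and they were 3.93 to 6.21-fold lower. The members that rose included 13 of the 23 genes of ER folding, degradation and sensing, and from the Atf4 branch Ddit3, Ppp1r15a, Atf4 and Slc3a2. The median change of the 38 was 0.38 log2, against 0.14 over all genes tested. After quantile normalisation 16 rose and 8 fell, against 37.3% and 33.1% of all genes tested. After centring 10 rose and 8 fell, against 31.9% and 38.8%. The 10 that rose under all 3 scalings were Dnajb9, P4hb, Sel1l, Syvn1, Edem1, Eif2ak3, Atf6, Xbp1, Ddit3 and Ppp1r15a, and the same 6 genes fell under all 3. Of 23 other probe sets of the called genes that passed the filter 0 were of the opposite sign, but 6 showed under 50% of the change, among them 1 of Hyou1 (0.14 against 0.49), 1 of Xbp1 (0.29 against 0.65) and 2 of Dnajc3 (0.25 and 0.15 against 0.76). The rest were 1 of Sel1l (0.08 against 0.87) and 1 of Shmt2 (-0.12 against -2.49), each above the filter level on 8 arrays.

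Markers of other states and cell types moved in the same comparison. All 4 cycling genes measured fell, and the log2 of their summed signal went from a range of 11.23 to 11.39 on proliferating to 5.84 to 6.46 on quiescent control arrays. Of 7 differentiated muscle genes 6 rose, with sums from 6.80 to 10.05 and then from 10.68 to 11.26. The 3 macrophage genes tested of 7 measured (Cd14, Cd68 and Csf1r) rose, with sums of the 7 from 5.06 to 5.36 and then from 8.17 to 8.18. Of 3 adipocyte genes 1 was tested and rose, while Adipoq was below the filter level in both groups. The part of these genes in the changes of the 38 was not tested.

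Dnajb9 (ERdj4), a cochaperone that helps hold Ern1 inactive and serves degradation, had the largest rise of the 38. It read 5.70, 5.12 and 5.47 on the proliferating and 8.14, 8.60 and 8.40 on the quiescent control arrays. These groups did not overlap, and the change was 2.95 log2 (SE 0.25, adjusted p = 9.6e-10), or 7.72-fold. Dnajc3 (p58IPK), an inhibitor of eIF2 alpha kinases, rose by 0.76 log2 (SE 0.28, adjusted p = 0.0179), and its call ended without control proliferating replicate 2 or control quiescent replicate 2. Hspa5 (BiP), the main Hsp70 of the ER, read 10.50, 9.86 and 10.26 on proliferating and 10.75, 10.85 and 10.83 on quiescent arrays. Its rise of 0.60 log2 (SE 0.23, adjusted p = 0.0228) was 1.52-fold, and the call ended without control proliferating replicate 2 or control quiescent replicate 2 or 3 (highest adjusted p = 0.13). Hyou1, the large ER chaperone that exchanges nucleotide on BiP, rose by 0.49 log2 (SE 0.21, adjusted p = 0.0472), and 5 of the 6 arrays each ended its call when left out (control proliferating 1, 2 and 3, control quiescent 1 and 2). Its call also ended with the mean of its probe sets (0.20, adjusted p = 0.272), but 1 of these was above the filter level on 0 arrays and dilutes that mean. The other chaperones were not called: Hsp90b1 (GRP94) changed by 0.34 (SE 0.16), the lectin Calr by 0.24 (SE 0.18), its membrane partner Canx by -0.23 (SE 0.13), Dnajb11 by -0.04 (SE 0.13) and Sdf2l1 by 0.44 (SE 0.33).

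Disulfide isomerases form and rearrange the disulfide bonds of proteins in the ER. P4hb, the founding member and also a subunit of collagen prolyl hydroxylase, read 10.22, 10.12 and 10.12 on proliferating and 11.40, 11.35 and 11.31 on quiescent control arrays. Its rise of 1.20 log2 (SE 0.09, adjusted p = 4.63e-11) was far outside this spread. Pdia4 rose by 0.59 log2 (SE 0.21, adjusted p = 0.0181) and Pdia6 by 0.55 log2 (SE 0.16, adjusted p = 0.00401), and the call of Pdia4 ended without control proliferating replicate 2 or control quiescent replicate 1. Pdia3, which works with the lectin chaperones, changed by 0.24 (SE 0.16) and was not called. The secreted stress factors were not called either, with changes of 0.36 (SE 0.34) for Creld2 and -0.02 (SE 0.21) for Manf.

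Of the 4 genes of ER-associated degradation, which returns misfolded proteins to the cytosol for the proteasome, 3 rose. Syvn1 (HRD1), the membrane ubiquitin ligase, read 5.02, 4.96 and 5.18 on proliferating and 6.12, 6.14 and 5.88 on quiescent control arrays, a rise of 0.99 log2 (SE 0.28, adjusted p = 0.00372). Its partner Sel1l went from 4.43, 4.29 and 4.18 to 4.90, 5.35 and 5.25, a rise of 0.87 log2 (SE 0.18, adjusted p = 0.000201). The mannosidase-like lectin Edem1 went from 6.62, 6.19 and 6.32 to 7.04, 7.25 and 7.12, a rise of 0.76 log2 (SE 0.17, adjusted p = 0.000547). All 3 were higher on every quiescent array than on any proliferating array. Herpud1, a scaffold of the same complex, read 6.96, 5.86 and 6.33 on proliferating and 6.57, 7.08 and 6.84 on quiescent arrays, so the groups overlapped, and it was not called.

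Among the sensors, Eif2ak3 rose by 1.14 log2 (SE 0.17, adjusted p = 5.02e-06), from 5.64, 5.58 and 5.63 to 6.73, 6.74 and 6.80 on the 3 arrays each. Atf6 rose by 0.67 log2 (SE 0.15, adjusted p = 0.000352) and Xbp1 by 0.65 log2 (SE 0.18, adjusted p = 0.00322). Ern1 lay near the filter level, above it on 22 of 24 arrays, and changed by -0.15 (SE 0.16). Of the 8 members with an ER stress element in the window 4 rose, with changes from -0.23 (Canx) to 0.99 (Syvn1). Of the 5 with the Atf4-type element 0 rose and 1 fell, with changes from -2.16 (Asns) to 0.58 (Trib3). Beside these counts of few genes, 41.9% of all genes tested rose and 29.4% fell.

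The Atf4 branch was divided, with 4 of its 15 genes higher and 6 lower. Atf4 mRNA rose by 0.25 log2 (SE 0.08, adjusted p = 0.00847), and under centring its change was 0.04 (adjusted p = 0.68). Ddit3, a C/EBP family factor linked to cell death, read 4.68, 4.46 and 4.62 on proliferating and 6.70, 6.67 and 6.57 on quiescent control arrays, a rise of 2.06 log2 (SE 0.19, adjusted p = 4.2e-09). Ppp1r15a (GADD34), the phosphatase subunit that removes the phosphate from eIF2 alpha, went from 5.01, 5.23 and 5.01 to 7.29, 7.51 and 7.74, a rise of 2.43 log2 (SE 0.15, adjusted p = 5.6e-12) or 5.38-fold. Both were thus above all proliferating arrays by more than the spread. The related factor Atf5 changed by 0.21 (SE 0.18), the pseudokinase Trib3 by 0.58 (SE 0.29), the glutathione-degrading enzyme Chac1 by -0.35 (SE 0.28) and the mTORC1 inhibitor Sesn2 by 0.41 (SE 0.49), and none of these 4 was called. Sesn2 had the widest error of the 38.

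All 5 enzymes of amino acid and folate metabolism, which Atf4 is known to drive, fell. Phgdh and Psat1 catalyse successive steps of serine synthesis. Phgdh read 10.05, 10.12 and 10.13 on proliferating and 7.51, 7.43 and 7.48 on quiescent control arrays, a fall of 2.63 log2 (SE 0.13, adjusted p = 5.79e-14). Psat1 went from 9.70, 9.61 and 9.23 to 6.66, 7.04 and 6.94, a fall of 2.63 log2 (SE 0.19, adjusted p = 7.78e-11). Shmt2 and Mthfd2 pass the serine carbon into mitochondrial folates. Shmt2 fell by 2.49 log2 (SE 0.17, adjusted p = 2.4e-11), from 7.64, 7.98 and 7.98 to 5.51, 5.36 and 5.27. Mthfd2 fell by 2.53 log2 (SE 0.17, adjusted p = 2.82e-11), from 8.80, 8.49 and 8.45 to 6.13, 5.88 and 6.16. Asns, which makes asparagine, fell by 2.16 log2 (SE 0.16, adjusted p = 6.42e-11), from 8.54, 8.74 and 8.48 to 6.56, 6.33 and 6.38. In all 5 the lowest proliferating array lay above the highest quiescent array. The probe sets of Phgdh, Shmt2, Asns and Trib3 are of a kind (x_at) that may also bind other transcripts. Other probe sets of Phgdh, all of the same kind, fell by 2.22 to 2.61. Another probe set of Asns, not of that kind, fell by 1.97.

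Slc7a5 and Slc3a2 are the light and heavy chains of a carrier of large neutral amino acids, and Slc3a2 also serves the cystine carrier Slc7a11. Slc7a5 fell by 1.98 log2 (SE 0.14, adjusted p = 3.78e-11), from 8.48, 8.81 and 8.62 to 6.87, 6.58 and 6.54 on the control arrays. Slc3a2 rose by 0.27 log2 (SE 0.11, adjusted p = 0.0403), a small change whose call ended when any 1 of 5 arrays was left out (control proliferating 1, 2 and 3, control quiescent 1 and 2) and under centring (0.05, adjusted p = 0.712). The light chain thus fell while the heavy chain did not. Slc7a11 was above the filter level on only 6 of 24 arrays and changed by -0.05 (SE 0.19).

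**Figure D2:**
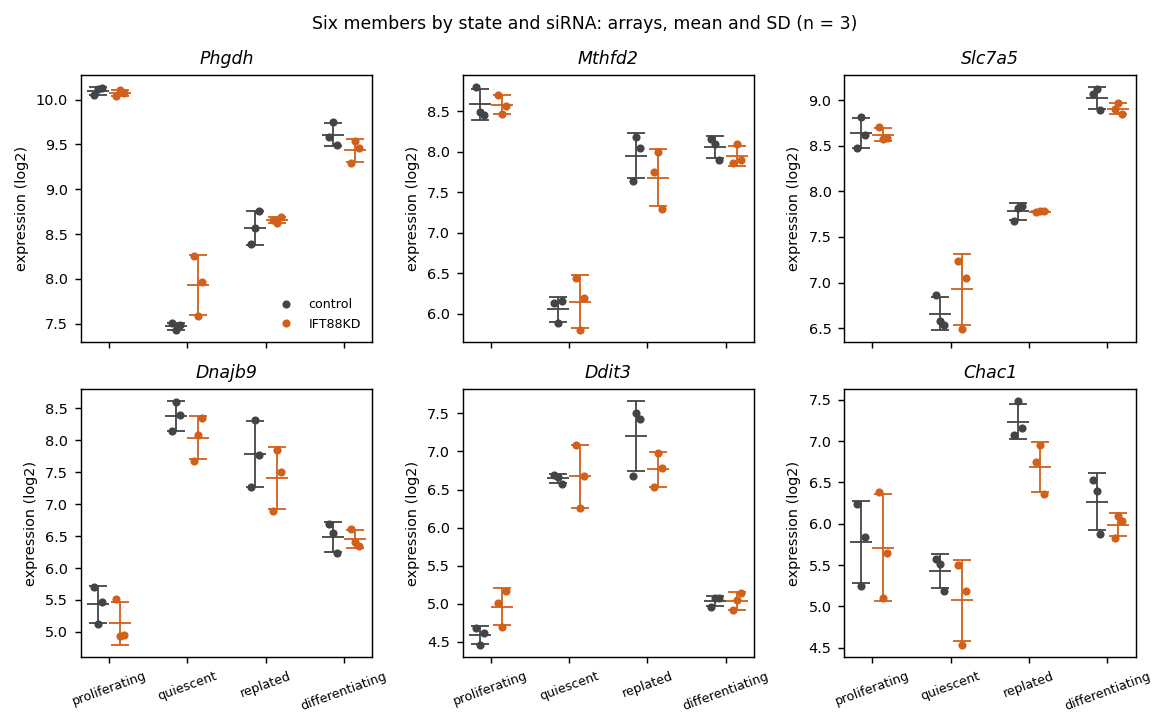
Expression (log2) of Phgdh, Mthfd2, Slc7a5, Dnajb9, Ddit3 and Chac1 on each array in the 4 states, in control (dark grey) and IFT88KD (orange) cells, with the mean and SD of 3 arrays. Phgdh, Mthfd2 and Slc7a5 are lowest in quiescent cells, and Dnajb9 and Ddit3 are higher in quiescent and replated cells than in proliferating cells, while Chac1 is highest in replated cells.

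In IFT88KD cells 14 members rose and 7 fell in suspension, against 40% and 29.2% of all genes tested. All 14 were among the 17 that rose in control cells (82.4% of those), and Hspa5, Pdia6 and Atf4 were called in control cells alone. The same 6 genes fell, and Canx was added. After quantile normalisation 13 rose and 9 fell, against 35.2% and 32.8% of all genes tested. After centring 7 rose and 8 fell, against 29.4% and 39.0%. In all, 13 of the 21 calls held whichever array was left out.

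Dnajb9 again rose most. It read 5.52, 4.93 and 4.95 on proliferating and 7.68, 8.09 and 8.34 on quiescent IFT88KD arrays, a rise of 2.91 log2 (SE 0.25, adjusted p = 1.44e-09). Ppp1r15a went from 5.15, 5.23 and 5.36 to 7.17, 7.47 and 7.67, a rise of 2.19 log2 (SE 0.15, adjusted p = 3.68e-11). Ddit3 went from 5.02, 4.69 and 5.17 to 7.08, 6.26 and 6.67, a rise of 1.71 log2 (SE 0.19, adjusted p = 8.15e-08). Of the ER genes P4hb came next after Dnajb9. It went from 10.32, 10.06 and 10.03 to 11.31, 11.30 and 11.36, a rise of 1.19 log2 (SE 0.09, adjusted p = 6.7e-11). Sel1l went from 4.57, 4.35 and 3.90 to 4.67, 5.22 and 5.25, a rise of 0.77 log2 (SE 0.18, adjusted p = 0.000697). A dim Sel1l probe set, above the filter level on 8 arrays, changed by -0.12, and another, above it on 24, by 1.09. The sensors Eif2ak3 and Atf6 rose by 0.75 log2 (SE 0.17, adjusted p = 0.000591) and by 0.69 log2 (SE 0.15, adjusted p = 0.000293). On quiescent IFT88KD arrays Eif2ak3 read 6.43, 6.46 and 6.61 and Atf6 6.62, 6.22 and 6.31.

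Weaker calls in IFT88KD cells depended on single arrays. Syvn1 rose by 0.70 log2 (SE 0.28, adjusted p = 0.0336), a call that ended without IFT88KD proliferating replicate 1 or 2 or IFT88KD quiescent replicate 2 or 3, and under centring (adjusted p = 0.138). Dnajc3, Edem1, Hyou1, Pdia4, Slc3a2 and Xbp1 rose by 0.66, 0.46, 0.49, 0.58, 0.35 and 0.58 log2. Each of these 6 lost its call without IFT88KD proliferating replicate 2, and all but Xbp1 also without other arrays. Canx fell by 0.31 log2 (SE 0.13, adjusted p = 0.0339), a call that ended without IFT88KD proliferating replicate 1 or IFT88KD quiescent replicate 1 or 2. A dimmer Canx probe set changed by 0.29, in the other direction, and a further one by -0.90, and with the mean of the probe sets Canx was not called (-0.31, adjusted p = 0.0839). Hyou1 (0.21, adjusted p = 0.26) and Pdia4 (0.27, adjusted p = 0.0726) were not called with that mean either. The other probe set of Pdia4 and 1 of Hyou1 were above the filter level on 0 arrays, so these means dilute the change.

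The enzymes fell on all IFT88KD quiescent arrays. Psat1 read 9.51, 9.36 and 9.28 on proliferating and 6.91, 6.66 and 7.14 on quiescent arrays, a fall of 2.48 log2 (SE 0.19, adjusted p = 2.48e-10). Mthfd2 went from 8.70, 8.47 and 8.57 to 6.44, 5.80 and 6.19, a fall of 2.43 log2 (SE 0.17, adjusted p = 6.35e-11). Phgdh went from 10.04, 10.11 and 10.08 to 8.26, 7.58 and 7.96, a fall of 2.14 log2 (SE 0.13, adjusted p = 2.38e-12). Replicate 1 of the quiescent arrays was the highest for both Mthfd2 and Phgdh. Shmt2 went from 7.66, 7.89 and 7.48 to 5.76, 5.26 and 5.71, a fall of 2.10 log2 (SE 0.17, adjusted p = 4.71e-10). A dim Shmt2 probe set, above the filter level on 8 arrays, changed by 0.05, and others, above it on 24 and 18, by -2.27 and -2.95. Asns went from 8.41, 8.24 and 8.11 to 6.84, 5.99 and 6.58, a fall of 1.78 log2 (SE 0.16, adjusted p = 1.74e-09). Slc7a5 went from 8.70, 8.57 and 8.59 to 7.24, 6.49 and 7.05, a fall of 1.69 log2 (SE 0.14, adjusted p = 5.7e-10), and replicate 2 of its quiescent arrays lay below the other 2.

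A wider list of 113 tested genes of the same pathways also held genes that rose (52) and genes that fell (34) in suspended control cells. Of all genes tested 41.9% rose and 29.4% fell in this comparison. Of 23 further genes of glycosylation and folding 17 rose and 0 fell in suspension, led by Ero1a, the oxidase that recharges disulfide isomerases, with 4.86 log2 (SE 0.23, adjusted p = 6.15e-14). Of 18 cytosolic tRNA synthetases, several of them known Atf4 targets, 14 fell and 1 rose. Of 18 other Atf4-related genes 9 rose and 8 fell. Vldlr (5.28) and the stress factor Atf3 (4.45) rose most, and Cth of cysteine synthesis (-2.69), Jdp2 (-1.72) and Psph, the last enzyme of serine synthesis (-1.68), fell most. Of 16 other degradation genes 8 rose and 3 fell, of 19 translocon genes 8 and 2, and of 19 other signalling genes 9 and 7. These lists, like the 38, were drawn up with earlier results of these data known, and their counts describe them only.

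**Figure D3:**
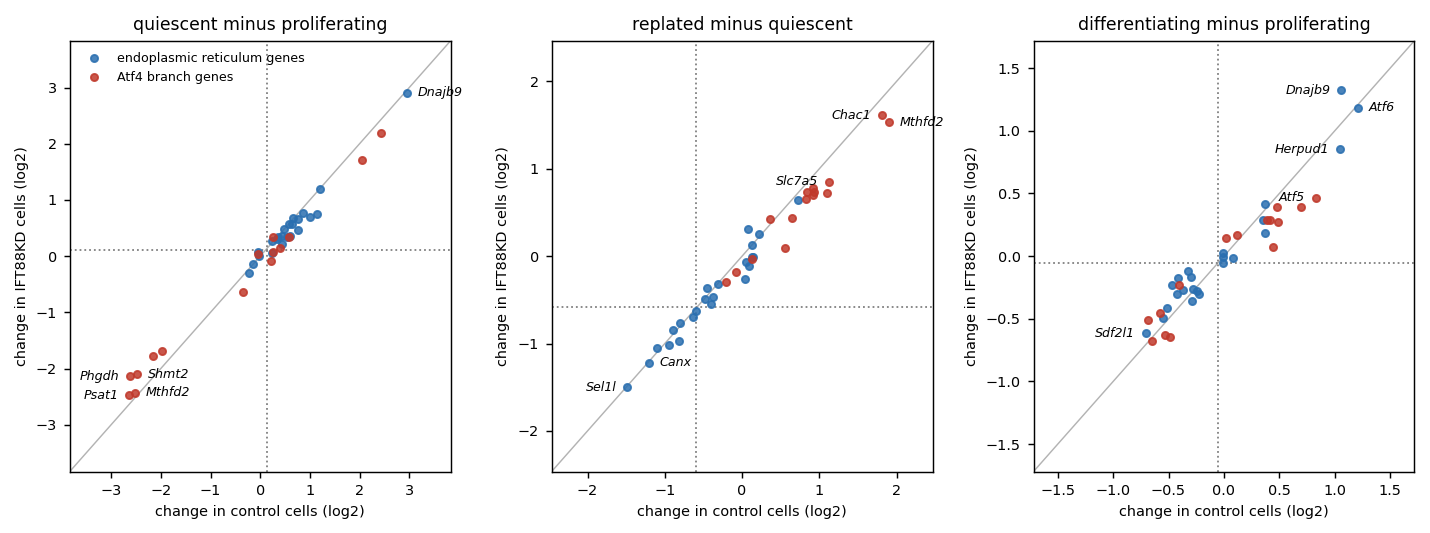
Change between states in control cells (x axis, log2) and in IFT88KD cells (y axis, log2) for the 38 genes in 3 comparisons, with ER genes in blue and Atf4 branch genes in red. The grey line marks equal change and dotted lines the median change of all genes tested, which is -0.60 and -0.58 in the middle plot; the 5 genes with the largest change in control cells are named.

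After replating for 2 h, 11 of the 15 genes of the Atf4 branch rose, while 11 of the 23 ER genes fell on the deposited scale. From quiescent to replated control cells 12 members rose and 11 fell, where 9.72% of all genes tested rose and 66.2% fell. The 12 that rose were Atf4, Atf5, Ddit3, Trib3, Chac1, Asns, Phgdh, Shmt2, Mthfd2, Slc3a2, Slc7a5 and Herpud1, the last being the ER gene. All 12 rose under all 3 scalings, and the call of Trib3 depended on its probe set. The 11 that fell were ER folding, degradation and sensor genes. Their fall depends on the scale. After quantile normalisation 18 rose and 7 fell, where 27.5% of all genes tested rose and 36.3% fell. After centring 27 rose and 2 fell, where 47.6% and 20.1% did. Canx and Sel1l fell under all 3 scalings, while Dnajb11 and P4hb were called lower as deposited and higher after centring. The median change of the 38 was 0.08 log2, against -0.60 over all genes tested.

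On the deposited scale markers of other states and cell types were lower after replating. In control cells 66.2% of all genes tested also fell, with a median change of -0.60 log2 over all. The sums below hold that shift between states and were not scaled again. In control cells all 4 cycling genes fell, with summed log2 signal from a range of 5.84 to 6.46 on quiescent to 5.04 to 5.37 on replated arrays. Of 7 differentiated muscle genes 3 fell, with sums from 10.68 to 11.26 and then from 9.46 to 10.12. Of 3 macrophage genes tested 2 fell, and the sums of the 7 measured went from 8.17 to 8.18 down to 7.005 to 7.18, with Adgre1, Ptprc, Itgam and Lyz2 below the filter level in both groups. The 1 adipocyte gene tested fell, with sums of 3 genes from 9.04 to 9.60 and then from 7.86 to 8.31, and Adipoq was below the filter level in both. The part of these genes in the changes of the 38 was not tested.

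On the probe sets used, Mthfd2 had the largest rise of the 38 in control cells. It read 6.13, 5.88 and 6.16 on quiescent and 7.64, 8.17 and 8.04 on replated control arrays, a rise of 1.90 log2 (SE 0.17, adjusted p = 3.79e-09) or 3.72-fold. Chac1, a target of Atf4 and Ddit3, went from 5.57, 5.51 and 5.19 to 7.07, 7.48 and 7.15, a rise of 1.81 log2 (SE 0.28, adjusted p = 6.91e-06). Neither pair of groups overlapped. Another Mthfd2 probe set, above the filter level on 24 arrays, rose by 1.35 log2, less than Chac1, and the order of these genes was not tested. Chac1 had not been called on entry into suspension, and its 3 replated arrays lay above its 3 proliferating arrays (6.24, 5.25 and 5.85). Phgdh rose by 1.10 log2 (SE 0.13, adjusted p = 9.34e-08) to 8.38, 8.57 and 8.76, Slc7a5 by 1.12 log2 (SE 0.14, adjusted p = 2.7e-07) to 7.68, 7.82 and 7.84. For both genes all replated arrays lay above all quiescent arrays. Shmt2 rose by 0.92 log2 (SE 0.17, adjusted p = 4.83e-05) to 6.03, 6.31 and 6.57, and Asns by 0.83 log2 (SE 0.16, adjusted p = 6.53e-05) to 7.14, 7.30 and 7.30. Another probe set of Shmt2, not of the x_at kind, changed by 0.37. On the deposited scale the serine enzyme Psat1 did not follow. It read 7.05, 7.06 and 6.94 on replated arrays, almost its quiescent level, with a change of 0.13 log2 (SE 0.19, adjusted p = 0.535). The median change of all genes tested was -0.60. Of the fall into suspension, control cells had regained 75% for Mthfd2, 56.7% for Slc7a5, 41.8% for Phgdh, 38.2% for Asns, 37.0% for Shmt2 and 5.10% for Psat1. With quantile normalisation these shares were 88.3%, 74.6%, 53.3%, 55.5%, 54.1% and 19.2%. Psat1 was then called (0.51 log2, adjusted p = 0.0224), and its share was the smallest of the 6 on both scales. The shares of different genes were not tested against each other.

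Slc3a2 rose by 0.91 log2 (SE 0.11, adjusted p = 2.6e-07), from 8.68, 8.48 and 8.44 to 9.37, 9.44 and 9.54. On the deposited scale the carrier's heavy chain was thus above its proliferating level of 8.27 ± 0.01, while the light chain Slc7a5 was below its own. Atf5 rose by 0.85 log2 (SE 0.18, adjusted p = 0.000178), from 7.84, 7.32 and 7.34 to 8.41, 8.32 and 8.29, and Atf4 by 0.36 log2 (SE 0.08, adjusted p = 0.000458). Another Atf4 probe set, of the x_at kind and above the filter level on all 24 arrays, rose by 1.23 log2. In IFT88KD cells it rose by 0.86, against 0.42 for the probe set used. A further Atf4 probe set, above that level on 0 arrays, changed by -0.14 in control cells. The size of the rise thus depends on the probe set. Ddit3 read 6.67, 7.50 and 7.43 and rose by 0.55 log2 (SE 0.19, adjusted p = 0.013), with overlap of the groups, and its call ended without control replated replicate 2 or 3. Herpud1 rose by 0.72 log2 (SE 0.30, adjusted p = 0.0334) and Trib3 by 0.64 log2 (SE 0.29, adjusted p = 0.0465) on its x_at probe set. The other probe set of Trib3, above the filter level on all 24 arrays, changed by -0.19 (adjusted p = 0.479), so with x_at probe sets set aside 11 members rose, and with the mean of its probe sets Trib3 was not called (0.23, adjusted p = 0.416). Each of these 2 calls ended without control replated replicate 2 or 3, and also without control quiescent replicate 2 or 3 for Trib3 and 1 or 3 for Herpud1. Sesn2 read 4.43, 6.66 and 6.72 on the replated control arrays, with replicate 1 far below the other 2, and was not called (0.93, SE 0.49). With the replicate number as a block, Sesn2 was called (adjusted p = 0.0332) and Herpud1 was not (adjusted p = 0.0529). Of the 5 members with the Atf4-type element 4 rose, with changes from -0.07 (Slc7a11) to 1.81 (Chac1), where 9.72% of all genes tested rose.

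Among the ER genes Sel1l fell by 1.49 log2 (SE 0.18, adjusted p = 1.91e-07), from 4.90, 5.35 and 5.25 to 3.93, 3.70 and 3.40. As deposited this was below its 3 proliferating arrays (4.43, 4.29 and 4.18). Median signal was also lower on replated (2.91 to 2.98) than on proliferating arrays (3.57 to 3.62), and these states were not compared in the fit. Canx fell by 1.21 log2 (SE 0.13, adjusted p = 2.07e-08), from 9.24, 9.38 and 9.30 to 8.27, 8.18 and 7.84. A dimmer Canx probe set fell by only 0.31 log2, and a further one by 1.18. After centring Sel1l and Canx stood at -0.62 and -0.35 log2.

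All 4 disulfide isomerases fell as deposited. Pdia6 fell by 1.10 log2 (SE 0.16, adjusted p = 2.17e-06), from 8.65, 8.84 and 8.86 to 7.53, 7.94 and 7.59. Pdia4 fell by 0.89 log2 (SE 0.21, adjusted p = 0.000723), from 8.25, 8.18 and 8.12 to 7.12, 7.50 and 7.25. Pdia3 fell by 0.81 log2 (SE 0.16, adjusted p = 0.000118), from 9.13, 9.27 and 9.11 to 8.26, 8.59 and 8.25. The fall of P4hb, 0.48 log2 (SE 0.09, adjusted p = 2.87e-05), was the smallest of the 4. A dim probe set of Pdia6, above the filter level on 8 arrays, changed by 0.08. Under centring the changes of Pdia6, Pdia4, Pdia3 and P4hb were -0.23, -0.03, 0.06 and 0.38, and P4hb was then called higher (adjusted p = 0.00053).

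Of the sensors, Eif2ak3 fell by 0.94 log2 (SE 0.17, adjusted p = 4.57e-05), from 6.73, 6.74 and 6.80 to 5.49, 6.04 and 5.91. Ern1 fell by 0.63 log2 (SE 0.16, adjusted p = 0.000949), from 2.67, 2.76 and 2.63 to 2.16, 1.99 and 2.01. Their centred changes were -0.08 and 0.23, and after quantile normalisation Ern1 stood at 0.0035. Sdf2l1, which works with Hspa5 and ERdj cochaperones, fell by 0.82 log2 (SE 0.33, adjusted p = 0.0288), from 6.25, 6.06 and 5.94 to 5.06, 5.46 and 5.27. Dnajb9 fell by 0.60 log2 (SE 0.25, adjusted p = 0.0365) and Dnajb11 by 0.41 log2 (SE 0.13, adjusted p = 0.00932). After centring these 3 stood at 0.04, 0.27 and 0.46. The calls of Sdf2l1 and Dnajb9 ended without control replated replicate 1 or 3 or control quiescent replicate 2, and also without control quiescent replicate 1 for Sdf2l1 and 3 for Dnajb9. That of Dnajb11 ended without control replated replicate 1. At 7.27, 8.31 and 7.76, Dnajb9 on replated arrays was still above all its proliferating arrays. Hspa5 (0.13, SE 0.23), Hsp90b1 (0.03, SE 0.16), Calr (0.14, SE 0.18) and Xbp1 (0.13, SE 0.18) were not called as deposited, and under centring each was called higher, by 0.99, 0.90, 1.01 and 0.997. Of the 8 members with an ER stress element 0 rose and 2 fell as deposited, with changes from -1.21 (Canx) to 0.22 (Syvn1). Beside these, 9.72% of all genes tested rose and 66.2% fell.

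In IFT88KD cells 9 members rose and 11 fell after replating, against 10.2% and 66.3% of all genes tested. After quantile normalisation 15 rose and 6 fell, against 27.8% and 35.2% of all genes tested. After centring 27 rose and 2 fell, against 48.2% and 19.9%. The same 11 genes fell, and the 9 that rose were all among the 12 of control cells (75% of those), with Herpud1, Ddit3 and Trib3 called in control cells alone. Chac1 read 5.50, 4.54 and 5.19 on quiescent and 6.75, 6.95 and 6.36 on replated IFT88KD arrays, a rise of 1.61 log2 (SE 0.28, adjusted p = 3.02e-05). Mthfd2 went from 6.44, 5.80 and 6.19 to 7.75, 7.99 and 7.29, a rise of 1.53 log2 (SE 0.17, adjusted p = 8.47e-08). Here Chac1 and not Mthfd2 had the largest change, an order that was not tested. The other Mthfd2 probe set rose by 0.94. Slc7a5 rose by 0.85 log2 (SE 0.14, adjusted p = 1.11e-05) to 7.77, 7.78 and 7.79. Slc3a2 rose by 0.78 log2 (SE 0.11, adjusted p = 2.46e-06) to 9.27, 9.38 and 9.48, and Atf5 by 0.73 log2 (SE 0.18, adjusted p = 0.00074) to 8.14, 7.96 and 8.04. The enzymes Phgdh, Shmt2 and Asns rose by 0.72, 0.70 and 0.65 log2, to 8.66, 8.63 and 8.69, to 6.11, 6.48 and 6.23 and to 7.18, 7.07 and 7.12. The Shmt2 probe set not of the x_at kind changed by -0.09. Dimmer ones of that kind, above the filter level on 18 and 8 arrays, changed by 0.35 and 0.75. Ddit3 changed by 0.09 log2 (SE 0.19, adjusted p = 0.671) and Psat1 by -0.04 (SE 0.19).

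Sel1l fell by 1.50 log2 (SE 0.18, adjusted p = 1.76e-07), from 4.67, 5.22 and 5.25 to 3.48, 3.62 and 3.54. Canx fell by 1.22 log2 (SE 0.13, adjusted p = 1.94e-08), from 8.86, 8.96 and 9.02 to 7.87, 7.72 and 7.60. They were again the 2 that fell under all 3 scalings. Pdia6, Eif2ak3, Pdia4, Pdia3, Ern1 and P4hb fell by 1.05, 1.02, 0.84, 0.76, 0.70 and 0.49 log2, and under centring these changes were -0.19, -0.17, 0.02, 0.09, 0.16 and 0.36. The shares of the fall regained were 63.0% for Mthfd2, 50.3% for Slc7a5, 36.7% for Asns, 33.8% for Phgdh, 33.2% for Shmt2 and -1.55% for Psat1. With quantile normalisation they were 77.2%, 70.6%, 56.6%, 47.7%, 52.6% and 13.0%. The calls of Dnajb9 and Sdf2l1 ended without IFT88KD replated replicate 1 or IFT88KD quiescent replicate 3, and that of Dnajb9 also without IFT88KD quiescent replicate 2. With the replicate block, Herpud1 (0.64 log2, adjusted p = 0.0463), Sesn2 (0.73, adjusted p = 0.0429) and Atf6 (-0.32, adjusted p = 0.0298) were called as well.

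Without both replated arrays of replicate 1, a choice made after seeing the data, 14 rose and 11 fell in control cells, against 9.42% and 64.9% of all genes tested. In IFT88KD cells 12 rose and 9 fell, against 9.91% and 64.2%. Hspa5 then changed by 0.40 (SE 0.18, adjusted p = 0.0531), Herpud1 by 0.997 (SE 0.29, adjusted p = 0.00451) and Sesn2 by 1.69 (SE 0.43, adjusted p = 0.00171) in control cells.

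Of the 113 further pathway genes 21 rose and 60 fell in replated control cells, where 9.72% of all genes tested rose and 66.2% fell. Creb3l1, an ER-bound factor of secretory cells (1.80), Cebpg, a partner of Atf4 (1.12), and the secreted Stc2 (1.03) rose most. Casp12 (-1.61), the signal peptidase subunit Spcs1 (-1.55) and the glucosidase Mogs (-1.32) fell most. Of the 18 tRNA synthetases 6 rose and 5 fell, of 18 other Atf4-related genes 6 and 3, of 23 glycosylation and folding genes 1 and 18, of 19 translocon genes 1 and 15, of 16 degradation genes 2 and 9, and of 19 signalling genes 5 and 10.

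On differentiation the chaperone Dnajb9, the sensor Atf6 and Herpud1 rose and the amino acid and folate enzymes fell. From proliferating to differentiating control cells 8 rose and 10 fell, where 24.6% of all genes tested rose and 30.3% fell, and the changes ran from -0.71 to 1.21 log2, against -2.63 to 2.95 in suspension. After quantile normalisation 9 rose and 7 fell, against 26.8% and 27.8% of all genes tested. After centring 6 rose and 12 fell, against 20.2% and 37.4%. The sensor Atf6 rose most, from 5.76, 5.91 and 5.94 to 7.38, 6.97 and 6.88, by 1.21 log2 (SE 0.15, adjusted p = 5.5e-07). Dnajb9 read 6.69, 6.54 and 6.23 and rose by 1.06 log2 (SE 0.25, adjusted p = 0.00126). Herpud1 read 7.86, 7.31 and 7.13 and rose by 1.05 log2 (SE 0.30, adjusted p = 0.00509). None of these 3 overlapped with its proliferating arrays, and the rise of Dnajb9 was smaller than in suspension (2.95), a difference that was not tested. Atf5 rose by 0.83 log2 (SE 0.18, adjusted p = 0.000406), from 7.06, 7.29 and 7.51 to 8.25, 8.21 and 7.89, and Ppp1r15a by 0.70 log2 (SE 0.15, adjusted p = 0.000547) to 5.57, 6.08 and 5.70. Slc3a2 rose by 0.48 log2 (SE 0.11, adjusted p = 0.0012) to 8.98, 8.72 and 8.54. These 6 rose under all 3 scalings. Slc7a5 (0.39 log2, SE 0.14, adjusted p = 0.0216) and Dnajb11 (0.37 log2, SE 0.13, adjusted p = 0.0244) also rose, but neither was called under centring, and each call ended without control differentiating replicate 1 and 2 other arrays in turn (control proliferating 1 and control differentiating 2 for Slc7a5, control proliferating 2 and 3 for Dnajb11).

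All 5 amino acid and folate enzymes fell on differentiation, by 0.41 to 0.65 log2 against 2.16 to 2.63 in suspension, a difference that was not tested. Shmt2 fell by 0.65 log2 (SE 0.17, adjusted p = 0.00264), Psat1 by 0.58 log2 (SE 0.19, adjusted p = 0.0153), Mthfd2 by 0.53 log2 (SE 0.17, adjusted p = 0.0137), Phgdh by 0.49 log2 (SE 0.13, adjusted p = 0.00237) and Asns by 0.41 log2 (SE 0.16, adjusted p = 0.0316). On differentiating arrays Shmt2 read 7.03, 7.36 and 7.26, Psat1 9.39, 8.88 and 8.55 and Mthfd2 8.16, 8.10 and 7.90. Phgdh read 9.58, 9.75 and 9.49 and Asns 8.41, 8.21 and 7.91. Of the 5, Psat1 alone had groups that overlapped. Calls of Mthfd2 and Psat1 ended without control proliferating replicate 1 or control differentiating replicate 3, that of Psat1 also without control proliferating replicate 2, and that of Asns without control proliferating replicate 1 or 2 or control differentiating replicate 2 or 3. The call of Asns also ended with x_at probe sets set aside (-0.32, adjusted p = 0.0841), and that of Mthfd2 with the mean of its probe sets (-0.34, adjusted p = 0.0746).

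Other members fell too. Slc7a11 fell by 0.68 log2 (SE 0.19, adjusted p = 0.00374), from 2.59, 2.18 and 2.17 to 1.62, 1.92 and 1.35. Filter levels were 2.23 to 2.26 on proliferating and 2.33 to 2.38 on differentiating arrays. All its differentiating values thus lay below the filter level, and of its proliferating values only replicate 1 lay above it. Pdia3 fell by 0.55 log2 (SE 0.16, adjusted p = 0.00617) to 8.42, 8.40 and 8.32 and Canx by 0.47 log2 (SE 0.13, adjusted p = 0.00311) to 9.27, 8.96 and 8.97. A further Canx probe set changed by 0.27, in the other direction, and with the mean of its probe sets Canx was not called (-0.29, adjusted p = 0.117). P4hb fell by 0.30 log2 (SE 0.09, adjusted p = 0.00539) and Eif2ak3 by 0.43 log2 (SE 0.17, adjusted p = 0.0421), and the call of Eif2ak3 ended without any 1 of the 6 arrays and with the mean of its probe sets (-0.01, adjusted p = 0.937). The other probe sets of Eif2ak3 were above the filter level on 0 arrays, so that mean dilutes the change and cannot speak against it. Ddit3 (0.45, SE 0.19), Chac1 (0.49, SE 0.28), Trib3 (0.41, SE 0.29), Hspa5 (-0.28, SE 0.23) and Xbp1 (-0.01, SE 0.18) were not called. With the replicate block, Ddit3 (adjusted p = 0.0429), Pdia4 (-0.37 log2, adjusted p = 0.0285) and Sdf2l1 (-0.71 log2, adjusted p = 0.0173) were called. All 7 differentiated muscle genes rose and all 4 cycling genes fell in the same comparison, with sums of 13.54 to 13.76 and 9.96 to 10.32 on differentiating arrays, and their part was not tested.

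In IFT88KD cells 6 rose and 5 fell on differentiation, against 22.7% and 28.1% of all genes tested. After quantile normalisation 8 rose and 6 fell, against 24.2% and 26.1% of all genes tested. After centring 4 rose and 10 fell, against 18.0% and 37.1%. All 11 were called in the same direction in control cells, where they made up 75% of the 8 that rose and 50% of the 10 that fell. Dnajb9 rose by 1.32 log2 (SE 0.25, adjusted p = 0.000168), from 5.52, 4.93 and 4.95 to 6.62, 6.40 and 6.34, Atf6 by 1.19 log2 (SE 0.15, adjusted p = 8.87e-07) and Herpud1 by 0.85 log2 (SE 0.30, adjusted p = 0.0212). These 3 led the rises as in control cells. Slc3a2, Atf5 and Ppp1r15a rose by 0.39, 0.46 and 0.39 log2, to 8.64, 8.69 and 8.59, to 7.95, 7.88 and 7.77 and to 5.51, 5.87 and 5.54. Shmt2 fell by 0.68 log2 (SE 0.17, adjusted p = 0.0021), Phgdh by 0.64 log2 (SE 0.13, adjusted p = 0.000227) and Mthfd2 by 0.63 log2 (SE 0.17, adjusted p = 0.00472). These read 6.67, 7.14 and 7.18, 9.29, 9.54 and 9.46 and 7.86, 8.09 and 7.90 on differentiating arrays. Slc7a11 and Pdia3 fell by 0.51 and 0.49 log2, and Slc7a11 (1.63, 1.56 and 1.92) was below the filter level on all differentiating IFT88KD arrays. Over all genes tested 4378 were called, and 3838 to 4258 when 1 array was left out. Without IFT88KD proliferating replicate 2 only 7 members were called. Atf5, Herpud1, Ppp1r15a and Slc7a11 lost their calls there, and each also without IFT88KD differentiating replicate 1, replicate 2 or either. Pdia3 lost its call without IFT88KD proliferating replicate 1 or 3, and the other 6 calls held whichever array was left out. Other probe sets of the called members differed in places, with 1 of 8 of the opposite sign (Shmt2, 0.12) and 3 of 8, that one included, at under 50% of the change.

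Of the further pathway genes 30 rose and 25 fell in differentiating control cells, where 24.6% of all genes tested rose and 30.3% fell. Casp12 (1.91), Vldlr (1.38) and Bcl2l11, a mediator of apoptosis (1.05), rose most. Cth (-1.25), the ER reductase Dnajc10 (-0.68) and the valyl-tRNA synthetase Vars (-0.62) fell most. In IFT88KD cells Vldlr, Casp12 and Cth changed by 1.64, 1.82 and -0.82.

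Within a state, 1 of the 38 genes differed between IFT88KD and control cells past the threshold in the fit without a replicate block. None was called in proliferating cells, where 0.348% of all genes tested were, or in differentiating cells, where 0.139% were. In quiescent cells 1 was called, against 5.24% of all genes tested, and in replated cells 0, against 2.45%. At an unadjusted p under 0.05 there were 2 members in proliferating, 4 in quiescent, 2 in replated and 0 in differentiating cells, against 6.24%, 16.5%, 14.4% and 4.76% of all genes tested. Quantile normalisation and centring gave the same counts of 0, 1, 0 and 0. With the replicate number as a block more members were called in quiescent and replated cells, and these are given below beside the shares of all genes tested.

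Phgdh, the first enzyme of serine synthesis, was the member called. It read 8.26, 7.58 and 7.96 on the IFT88KD and 7.51, 7.43 and 7.48 on the control quiescent arrays, which did not overlap, and was higher by 0.46 log2 (SE 0.13, adjusted p = 0.0326). The call rests on each of 5 arrays: without IFT88KD quiescent replicate 1 or 3, or without control quiescent replicate 1, 2 or 3, it ended (highest adjusted p = 0.232). It also ended with the mean of the gene's probe sets (adjusted p = 0.0584) and with only the arrays of the compared groups (adjusted p = 0.157). The change stayed between 0.30 and 0.64 log2 in all of these, and the 3 other probe sets of the gene gave 0.37, 0.42 and 0.44. All probe sets of Phgdh are of the x_at kind, so these values cannot show whether other transcripts were bound. The other 4 enzymes also changed above 0, by 0.05 (SE 0.16) for Asns, 0.02 (SE 0.19) for Psat1, 0.19 (SE 0.17) for Shmt2 and 0.09 (SE 0.17) for Mthfd2, and none of these was called. In the same cells all 4 cycling markers measured (Mki67, Top2a, Birc5 and Ube2c) were higher, with a log2 of the summed signal of 7.86 to 8.35 in IFT88KD against 5.84 to 6.46 in control quiescent cells and 11.23 to 11.39 in proliferating control cells. The macrophage list went the other way, at 6.72 to 6.89 against 8.17 to 8.18, with Cd14 and Cd68 lower by 1.54 and 1.32 log2 and Adgre1, Ptprc, Itgam and Lyz2 below the filter level in both. The part of these genes in the result of Phgdh was not tested.

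The members with the next smallest p in quiescent cells did not pass. Canx changed by -0.36 log2 (SE 0.13, adjusted p = 0.12), and its IFT88KD arrays (8.86, 8.96 and 9.02) lay below its control arrays (9.24, 9.38 and 9.30). Atf4 changed by -0.23 log2 (SE 0.08, adjusted p = 0.124), with overlapping arrays, and was called without IFT88KD quiescent replicate 1 (-0.31, adjusted p = 0.045). Edem1, whose groups did not overlap, changed by -0.45 log2 (SE 0.17, adjusted p = 0.164). In the fit with replicate number as a block, 5 members were called in quiescent cells, against 13.8% of all genes tested: Phgdh higher (adjusted p = 0.0086), and Edem1 (0.00401), Canx (0.00439), Dnajb9 (0.0363) and Atf4 (0.0387) lower, by 0.45, 0.36, 0.34 and 0.23 log2. Arrays of the same number deviated together in each state, so this fit is given beside the one without it.

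In replated cells the 3 members with the smallest p were Canx (-0.37 log2, SE 0.13, adjusted p = 0.14), Ddit3 (-0.43 log2, SE 0.19, adjusted p = 0.295) and Atf4 (-0.16 log2, SE 0.08, adjusted p = 0.367). Ddit3 read 6.53, 6.98 and 6.78 on IFT88KD and 6.67, 7.50 and 7.43 on control arrays, which overlapped, and was called without control replated replicate 1 (-0.70, adjusted p = 0.0321). Canx read 7.87, 7.72 and 7.60 on IFT88KD and 8.27, 8.18 and 7.84 on control arrays, and was called without control replated replicate 3 (-0.50, adjusted p = 0.0456). With the replicate block 4 members were lower in replated IFT88KD cells and 0 higher, against 4.92% and 6.16% of all genes tested: Canx (adjusted p = 0.00572), Eif2ak3 (0.0253), Dnajb9 (0.0307) and Ddit3 (0.0452), by 0.37, 0.33, 0.37 and 0.43 log2. Of all 38 changes 34 were below 0, with a median of -0.15, against 48.9% of all genes tested and a median of 0.01. The regulators Chac1 (-0.55, SE 0.28), Trib3 (-0.43, SE 0.29) and Sesn2 (-0.38, SE 0.49) had the most negative values beside Ddit3, and only Chac1 of these had groups that did not overlap. Without both replated arrays of replicate 1 the median was -0.11 against 0.03, and 0 members were called. Sesn2 then changed by -1.17 (SE 0.47, unadjusted p = 0.0233, limma adjusted p = 0.309), Trib3 by -0.67 (adjusted p = 0.493) and Chac1 by -0.67 (adjusted p = 0.515). The cycling markers were higher here too, at 6.95 to 7.37 in IFT88KD against 5.04 to 5.37 in control cells, and Cd14 and Cd68, which macrophages also express, were lower by 1.29 and 1.07 log2; the part of these genes in the values of the 38 was not tested.

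**Figure D4:**
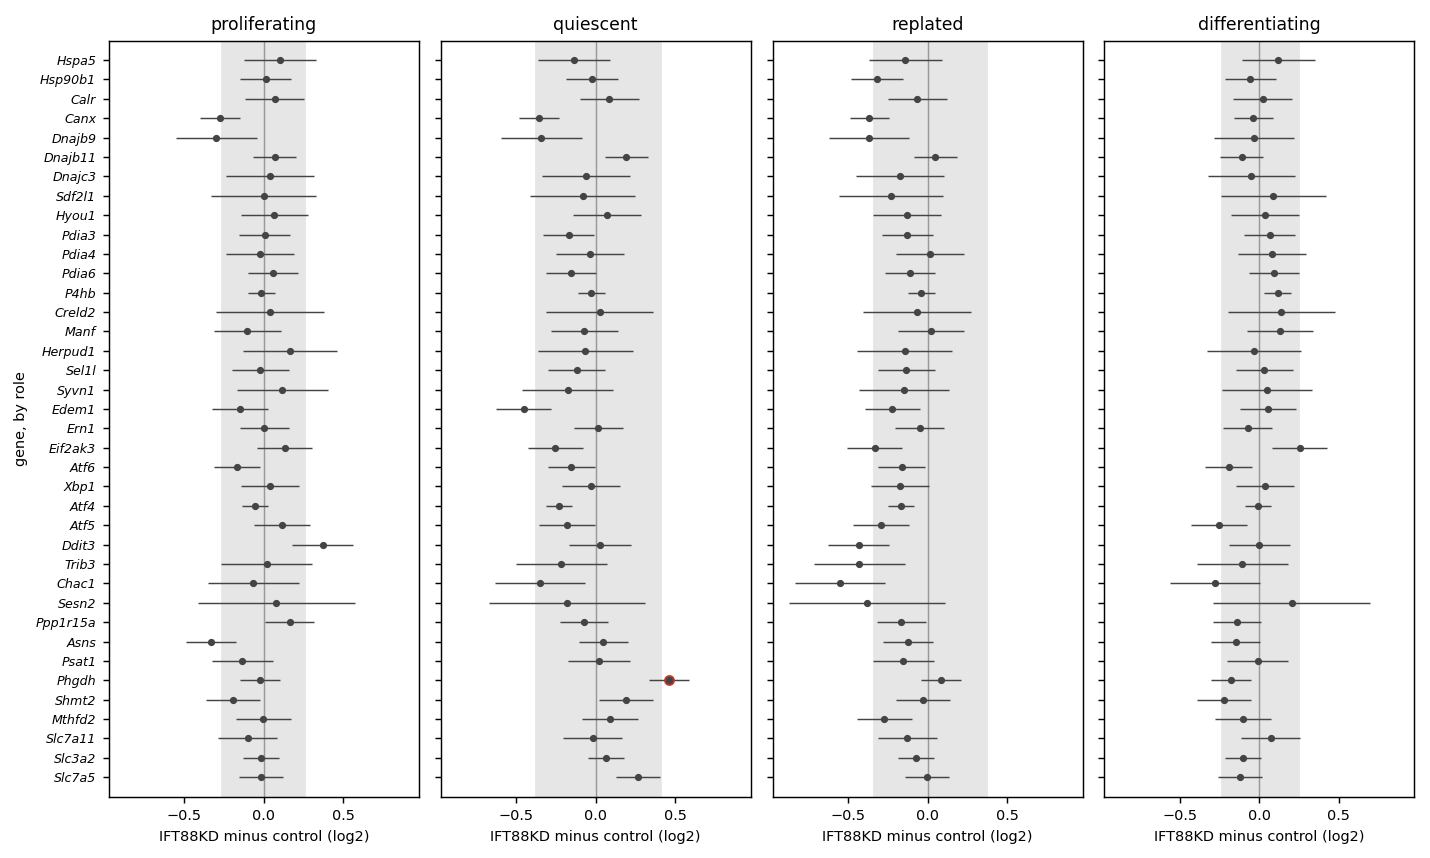
IFT88KD minus control change (log2, points) with its SE (bars) for each of the 38 genes in the 4 states, with the 5th to 95th percentile of all genes tested as a grey band and the called gene in red. In this fit, without a replicate block, only Phgdh in quiescent cells is red, at 0.46 log2, and in replated cells 34 of 38 points lie below 0.

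In proliferating cells the smallest p-values belonged to Canx (-0.28 log2, SE 0.13, adjusted p = 0.749), Asns (-0.33 log2, SE 0.16, adjusted p = 0.779) and Ddit3 (0.37 log2, SE 0.19, adjusted p = 0.859). Asns read 8.41, 8.24 and 8.11 on IFT88KD and 8.54, 8.74 and 8.48 on control arrays without overlap. In differentiating cells they belonged to Eif2ak3 (0.25 log2, SE 0.17, adjusted p = 0.999), Atf5 (-0.25 log2, SE 0.18, adjusted p = 0.999) and Phgdh (-0.18 log2, SE 0.13, adjusted p = 0.999). Canx was thus below its control mean in all 4 states, by 0.28, 0.36, 0.37 and 0.04 log2. It was called in none of them without the replicate block, and in quiescent and replated cells with it.

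No member passed the threshold for a difference of its IFT88KD effect between states. For quiescent against proliferating cells 0 members and 1.28% of all genes tested were called, for replated against quiescent 0 and 0.058%, and for differentiating against proliferating 0 and 0.0464%. At an unadjusted p under 0.05 there were 1, 1 and 0 members, against 8.56%, 3.19% and 3.64% of all genes tested. Phgdh had the smallest p in the first, with 0.48 log2 (SE 0.18, adjusted p = 0.325), and was called without IFT88KD quiescent replicate 2 (0.66, adjusted p = 0.0354). It also had the smallest in the second, with -0.37 log2 (SE 0.18, adjusted p = 0.999). Atf5 had the smallest in the third, with -0.37 log2 (SE 0.25, adjusted p = 1).

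Among the further pathway genes 4 were called between IFT88KD and control in quiescent and 3 in replated cells, and 0 in proliferating and differentiating cells. Of all genes tested 5.24% were called in quiescent, 2.45% in replated, 0.348% in proliferating and 0.139% in differentiating cells. In quiescent cells Stc2 was higher (0.67 log2, SE 0.16, adjusted p = 0.0136), and the isomerase Pdia5 (-0.60 log2, SE 0.11, adjusted p = 0.00146), the BiP exchange factor Sil1 (-0.56 log2, SE 0.13, adjusted p = 0.00962) and Eif2ak4, the kinase that senses uncharged tRNA (-0.48 log2, SE 0.12, adjusted p = 0.0173), were lower. In replated cells Pdia5 (-0.43 log2, SE 0.11, adjusted p = 0.039) and Sil1 (-0.55 log2, SE 0.13, adjusted p = 0.0203) were lower again, and the lysyl-tRNA synthetase Kars was higher (0.39 log2, SE 0.10, adjusted p = 0.043). Pdia5 and Sil1 were thus lower in both of the states that follow loss of attachment, while none of the 4 disulfide isomerases among the 38 was called in either.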

How the data were processed

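RNA of C2C12 cells was measured on 24 arrays in 8 groups of 3. The authors deposited log2 expression values of 22690 probe sets in a table, and the log2 scale was taken from the values. Per the submitters' processing notes, the tools were affy, GCOS and Affymetrix Expression Console; their versions and the normalisation method are not given in the sources used here. Array medians differed between states by more than within them, so a change between states can hold a difference of scaling.

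Probe sets were named from the platform annotation: 20380 had 1 gene symbol, 691 several and 1555 none, and 64 were controls. Each gene was read from its single-gene probe set with the highest mean, and a gene was tested where 3 or more arrays had it above their own 40th percentile (8619 of 12393). All 24 arrays entered 1 limma fit (limma 3.58.1 in R 4.3.3, lmFit and eBayes) with a mean for each group and 13 comparisons, and p-values were adjusted by Benjamini-Hochberg over the genes tested in each comparison. The fit was tested on simulated data.

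The 38 members and all other lists were chosen with earlier results of these data known. Named in full were the called members of a comparison, up to 8 with the largest rise and 8 with the largest fall, or, where fewer than 3 were called, the 3 with the smallest p. Of other pathway genes up to 3 in each direction were named, and probe sets or members beyond these were chosen after their values were seen. Alternatives were quantile normalisation, centring, other filters, other probe set choices, another variance model, only the compared groups, a replicate block and leaving out each array. Leaving out both replated arrays of replicate 1 was chosen after seeing the data.

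The labels number replicates alike in every group. Deviations of same-numbered IFT88KD and control arrays correlated over genes in every state and pair, from 0.256 to 0.708, above the limit of 0.1 set for pairing. Between states the limit was passed by every pair for control cells replated against quiescent (0.157 to 0.426), control cells differentiating against proliferating (0.164 to 0.28) and IFT88KD cells replated against quiescent (0.281 to 0.346), and not for the other 3. Promoter sequences came from RefSeq (GRCm38.p6).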

Additional observations from a re-analysis of the deposited data

How the results depend on the processing

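The total of members called per comparison, higher and lower together, stayed within 1.5 times under all alternatives run, except in 4 comparisons. For IFT88KD against control in quiescent cells, 1 member was called, and 0 with only the arrays of the compared groups or when its probe sets were averaged. Leaving out 1 array gave 0 to 2, with 2 without IFT88KD quiescent replicate 2. For replated cells 0 were called and leaving out 1 array gave 0 to 1, with 1 without control replated replicate 1 or 3. For the difference of the IFT88KD effect between quiescent and proliferating cells 0 were called and leaving out 1 array gave 0 to 1, with 1 without IFT88KD quiescent replicate 2. For differentiating against proliferating IFT88KD cells 11 were called and leaving out 1 array gave 7 to 11. The calls over all genes tested moved as well when 1 array was left out. For IFT88KD against control they went from 452 to between 272 and 353 in quiescent cells, and from 211 to between 112 and 271 in replated cells. For the difference of effects they went from 110 to between 80 and 110, and for differentiating IFT88KD cells from 4378 to between 3838 and 4258. The totals of members hide changes of direction. After replating 12 rose and 11 fell in control and 9 and 11 in IFT88KD cells, and under centring 27 and 2 in both. From proliferating to quiescent cells the members that rose went from 17 to 10 in control and from 14 to 7 in IFT88KD cells under centring. With the replicate block, 5 members were called in quiescent and 4 in replated IFT88KD against control cells, and no other total of members moved by over 1.5 times. Between quiescent and proliferating cells, where the numbers did not pair the arrays, the block ended the calls of Slc3a2 in control cells (adjusted p = 0.053) and of Hyou1 (0.0689) and Pdia4 (0.057) in IFT88KD cells.

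Most changes of sign came with the scaling of replated arrays. With arrays centred, replated minus quiescent changes turned above 0 for Ern1 (0.231 in control, 0.158 in IFT88KD cells), Pdia3 (0.0578 and 0.0919), P4hb (0.381 and 0.364), Dnajb9 (0.265 and 0.229), Dnajb11 (0.458 and 0.308), Sdf2l1 in control cells (0.0411) and Pdia4 in IFT88KD cells (0.0153), and with quantile normalisation for Ern1 in control cells (0.0035). With x_at probe sets set aside Shmt2 changed by -0.0854 in IFT88KD and Trib3 by -0.186 in control replated cells. Phgdh, which has no probe set of another kind, kept its x_at probe set there. The cause was not tested. Without both replated arrays of replicate 1, Sdf2l1 was no longer called in IFT88KD cells (-0.47, adjusted p = 0.146) and Dnajb9 in neither (-0.34, adjusted p = 0.184 in control, -0.37, adjusted p = 0.155 in IFT88KD cells). Signal near or below the filter level limits what can be said of Slc7a11 and Ern1.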
